A study of Homo sapiens with 4 samples.

Results

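AL713998.1, AC099520.1, AC091987.1 and LINC02163 are long noncoding RNAs whose contacts with other chromosomes were listed mainly in WT K562 cells and seldom or never in RUNX1 R320* K562 cells. They are 4 of the 2637 RNAs in a table of contacts between RNAs and regulatory elements, and they were taken from it by symbol. They were chosen by their R320* and WT numbers of trans connections, so the difference itself is described here, carries no test and supports nothing. The files list the RNAs as ENSG00000227706.4 (AL713998.1, chromosome 6), ENSG00000251574.8 (AC099520.1), ENSG00000253584.1 (AC091987.1) and ENSG00000251026.2 (LINC02163), the last 3 on chromosome 5.

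K562 is an established human leukaemia line that carries the BCR-ABL1 fusion. One group held K562 cells with RUNX1 R320*, a premature stop codon that removes the C-terminal end of the transcription factor, and the other held K562 cells labelled WT. There were 2 libraries per genotype, all from cells fixed with DSG and then formaldehyde, and the labels leave unsaid whether the mutant line was clonal and whether cultures were separate. The deposited table gives 1 pooled score per genotype for each of 115357 connections, so no replicate spread and no test of genotype could be had, and the sequencing depth is unknown. SDs below describe the spread over connections. The table lists a score of at least 1.2 or gives 0, which was read as not listed and never as a measured absence. K562 cells are of erythroid character. Among the marker genes, 3 of 10 erythroid ones were listed as RNAs (HBE1, HBG2 and TFRC), as were 2 of 6 lymphoid ones (IKZF1 and ZAP70) and 0 of 5 myeloid ones. As the nearest gene of a contacted element, 4 of 10 erythroid, 6 of 6 lymphoid and 4 of 5 myeloid markers were listed. The table measures contacts, not expression, so these listings do not rank expression.

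GRID-seq ligates RNA to nearby DNA in crosslinked chromatin and sequences the joined pairs, which reports where on the genome an RNA lay. Long noncoding RNAs can stay near their site of transcription or reach other chromosomes, as MALAT1 does at many active genes. RUNX1 pairs with CBFB to bind enhancers and promoters in blood cells, and its C-terminal part carries the transactivation region. The table sorts contacts into local ones at the RNA's own gene, cis ones elsewhere on its chromosome and trans ones on another chromosome. Nothing is stated here about the function of the 4 RNAs themselves.

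AL713998.1 had 13 trans connections in R320* and 316 in WT. AC099520.1 had 0 in R320* and 266 in WT, and AC091987.1 had 0 in R320* and 63 in WT. LINC02163 had 61 trans connections in R320* and 242 in WT. AC099520.1 and AC091987.1 were listed with no connection of any type in R320*, whereas AL713998.1 and LINC02163 were listed in both genotypes. Among all 2410 RNAs of the WT list, 11.3% had no connection in R320*, and among 77 RNAs with at least 25 WT trans connections 20.8% had at most 1 in 3 of that number in R320*, as all 4 members did by choice.

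Few of the single trans contacts were listed in both genotypes. AL713998.1 kept 1 of its 316 WT trans connections in R320* and LINC02163 kept 8 of 242, so that 99.7% and 96.7% of them were not listed there. Over all RNAs 80.3% of 12800 WT trans connections were not listed in R320*, which is the background for these shares. Because this contrast chose the RNAs, nothing is read from the gap. Together the 4 RNAs supplied 74 of 11600 trans connections in R320* (0.638%) and 887 of 12800 in WT (6.93%). Of the trans connections listed in 1 genotype only, the remaining RNAs had 9011 in R320* and 9398 in WT.

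**Figure D1:**
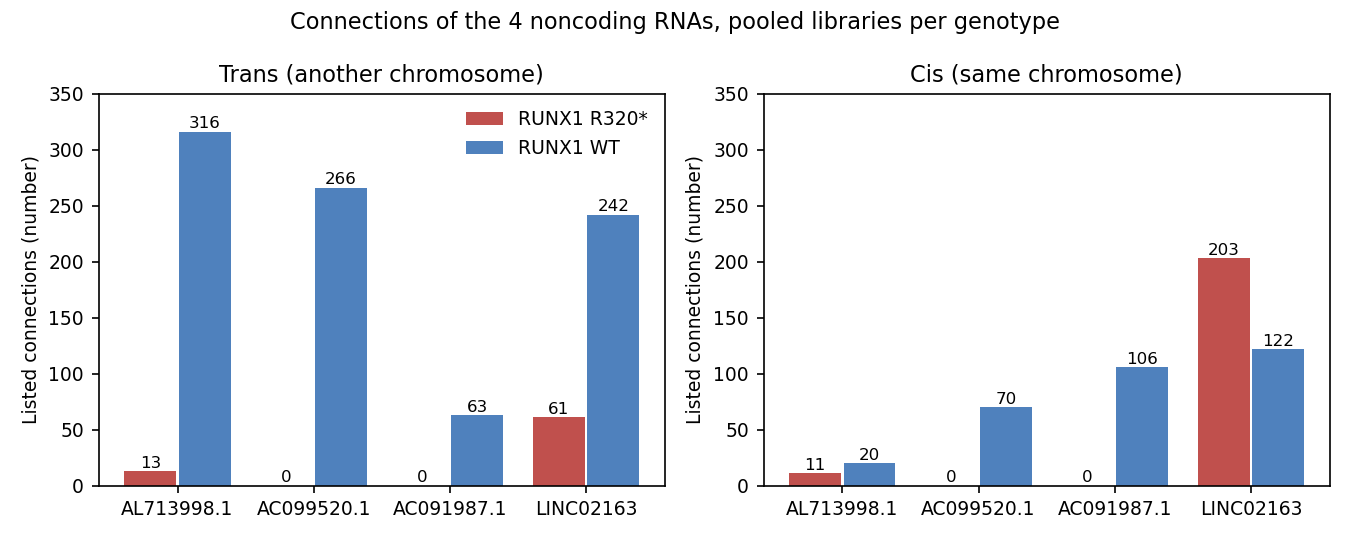
Number of listed trans connections (left panel) and cis connections (right panel) of each RNA, with RUNX1 R320* bars left of WT bars and 1 pooled value per bar. Trans counts are lower in R320* for all 4 RNAs, whereas LINC02163 has 203 cis connections in R320* and 122 in WT.

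The balance of LINC02163 depended on the score. At scores of at least 2 it had 6 trans connections in R320* and 5 in WT, and AL713998.1 had 9 in R320* and 23 in WT. At scores of at least 1.5 LINC02163 still had 49 in R320* and 100 in WT, so its imbalance lay in contacts scored below 2. Neighbouring elements met by 1 RNA are not independent, and elements closer than 1 Mb were merged into regions. AL713998.1 met 6 regions in R320* and 133 in WT, and LINC02163 met 29 in R320* and 128 in WT. AC099520.1 met 117 and AC091987.1 met 30 regions, in WT alone.

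The trans targets that several of the RNAs shared in WT show how far their lists overlapped. Some of the promoters among them are printed here, each met by more than 1 of the RNAs. Of 802 elements met in trans in WT, 722 were met by 1 of the 4 RNAs, 76 by 2, 3 by 3 and 1 by all 4. The BCR promoter element on chromosome 22 (23178404 to 23181734, hg38) was the only promoter met by 3, with WT scores of 1.83 for AC099520.1, 2.15 for AC091987.1 and 1.49 for LINC02163. BCR supplies the 5′ part of the BCR-ABL1 fusion. The MALAT1 promoter element (chromosome 11, 65495438 to 65506843) was met by AL713998.1 at 2.17 and by AC099520.1 at 1.90. YDJC (chromosome 22, 21623921 to 21633858) was met by AL713998.1 at 2.29 and by LINC02163 at 1.74. TMEM209 (chromosome 7, 130203251 to 130209097), which encodes a nuclear envelope protein, was met by AC099520.1 at 1.75 and by AC091987.1 at 1.95. PDAP1 (chromosome 7, 99405733 to 99410962) was met by AC099520.1 at 1.33 and by LINC02163 at 1.55, and ACTR3C (chromosome 7, 150315780 to 150325178) by AL713998.1 at 1.76 and by LINC02163 at 1.45. The first 5 each stand for a different combination of RNAs. ACTR3C was added as an AL713998.1 promoter whose window holds the RUNX word below, and it is not ranked here among the other such promoters. None of these connections was listed in R320*.

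The RefSeq promoter windows (GRCh38.p14) of these genes run from upstream of the gene's start to just inside the gene, 300 bases each, on the gene's strand. Capitals mark matches, on either strand, to 4 short words. The word TGTGGT is the core bound by RUNX proteins. The word AGATAA is the core recognised by the erythroid GATA factors. The word GGGCGG, known as the GC box, is recognised by SP and KLF proteins. The word CCGGAA is the core recognised by ETS proteins, and its matches on the 2 strands overlap in ACTR3C.
BCR, chr22:23180259-23180558, plus strand: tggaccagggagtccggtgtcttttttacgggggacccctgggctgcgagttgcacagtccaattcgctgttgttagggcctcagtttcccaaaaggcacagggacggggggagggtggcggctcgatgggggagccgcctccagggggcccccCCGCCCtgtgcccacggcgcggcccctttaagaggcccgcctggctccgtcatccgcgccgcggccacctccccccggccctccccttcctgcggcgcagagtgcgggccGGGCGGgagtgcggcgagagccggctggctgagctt
MALAT1, chr11:65497488-65497787, plus strand: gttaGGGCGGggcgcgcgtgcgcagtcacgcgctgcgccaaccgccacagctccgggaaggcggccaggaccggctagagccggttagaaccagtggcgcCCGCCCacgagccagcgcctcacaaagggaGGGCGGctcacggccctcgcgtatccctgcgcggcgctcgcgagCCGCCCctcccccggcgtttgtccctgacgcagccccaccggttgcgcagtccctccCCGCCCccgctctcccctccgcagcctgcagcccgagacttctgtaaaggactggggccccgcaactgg
YDJC, chr22:21629973-21630272, minus strand: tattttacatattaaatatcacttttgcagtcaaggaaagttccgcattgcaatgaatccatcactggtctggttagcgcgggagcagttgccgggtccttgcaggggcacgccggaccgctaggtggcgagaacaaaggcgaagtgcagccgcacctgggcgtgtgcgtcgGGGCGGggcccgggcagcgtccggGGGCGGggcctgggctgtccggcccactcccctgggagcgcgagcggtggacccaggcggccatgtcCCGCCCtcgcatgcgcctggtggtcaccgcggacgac
TMEM209, chr7:130205357-130205656, minus strand: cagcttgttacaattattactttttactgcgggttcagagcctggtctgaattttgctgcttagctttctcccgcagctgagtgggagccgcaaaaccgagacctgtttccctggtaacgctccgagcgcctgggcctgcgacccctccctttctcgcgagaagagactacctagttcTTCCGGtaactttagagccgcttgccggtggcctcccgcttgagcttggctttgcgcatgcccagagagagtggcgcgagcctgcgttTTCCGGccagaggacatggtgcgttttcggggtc
PDAP1, chr7:99408548-99408847, minus strand: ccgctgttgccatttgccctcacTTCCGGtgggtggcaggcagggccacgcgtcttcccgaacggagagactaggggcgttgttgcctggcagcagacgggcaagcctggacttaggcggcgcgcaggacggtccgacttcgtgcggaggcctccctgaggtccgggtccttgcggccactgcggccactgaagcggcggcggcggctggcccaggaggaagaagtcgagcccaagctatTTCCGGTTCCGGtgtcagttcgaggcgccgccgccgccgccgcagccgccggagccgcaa
ACTR3C, chr7:150323496-150323795, minus strand: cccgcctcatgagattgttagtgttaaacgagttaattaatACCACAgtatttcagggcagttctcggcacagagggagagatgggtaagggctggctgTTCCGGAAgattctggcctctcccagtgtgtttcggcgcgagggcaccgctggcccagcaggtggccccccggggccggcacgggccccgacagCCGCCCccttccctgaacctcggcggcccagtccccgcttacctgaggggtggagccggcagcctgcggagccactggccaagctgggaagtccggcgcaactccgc

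The BCR, MALAT1 and YDJC windows hold GC boxes (2, 5 and 3 of them), the TMEM209 and PDAP1 windows hold ETS words (2 and 3), and ACTR3C holds 1 RUNX word besides 1 GC box and 2 ETS matches. No GATA word is in any of the 6. Of 155 RefSeq windows at the WT trans promoters of the 4 RNAs, 10 (6.45%) hold the RUNX word, 5 (3.23%) the GATA word, 112 (72.3%) a GC box and 44 (28.4%) the ETS word. The same shares over 7522 windows at all promoter elements of the table were 8.56% for RUNX, 4.57% for GATA, 74.4% for the GC box and 29.97% for ETS. Over all 35116 RefSeq promoters they were 13.1%, 10.3%, 45.0% and 17.2% in the same order. The members' promoters thus carried these words at about the shares of the table's other promoters. A match is only a match of letters, and a window without one says nothing about whether the factor binds.

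AC099520.1 and AC091987.1 had the most similar lists of target elements. They shared 46 WT trans elements, which is 17.3% of the AC099520.1 list and 73.0% of the AC091987.1 list. At those shared elements AC091987.1 had the higher WT score at 44 of 46, with a median difference (AC091987.1 minus AC099520.1) of 0.276 ± 0.210 (SD over elements). In cis they shared 56 elements, and AC091987.1 was higher at 52 of them. AC099520.1 and LINC02163 shared 16 trans elements (6.02% and 6.61% of their lists), AL713998.1 and LINC02163 shared 13 (4.11% and 5.37%), and AL713998.1 and AC099520.1 shared 9 (2.85% and 3.38%). AC091987.1 and LINC02163 shared 6 (9.52% and 2.48%). AL713998.1 and AC091987.1 shared 1. In R320* only AL713998.1 and LINC02163 were listed, with 13 and 61 trans elements, and they had no element in common. The other pairs could share nothing there, so nothing is read from this absence.

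**Figure D2:**
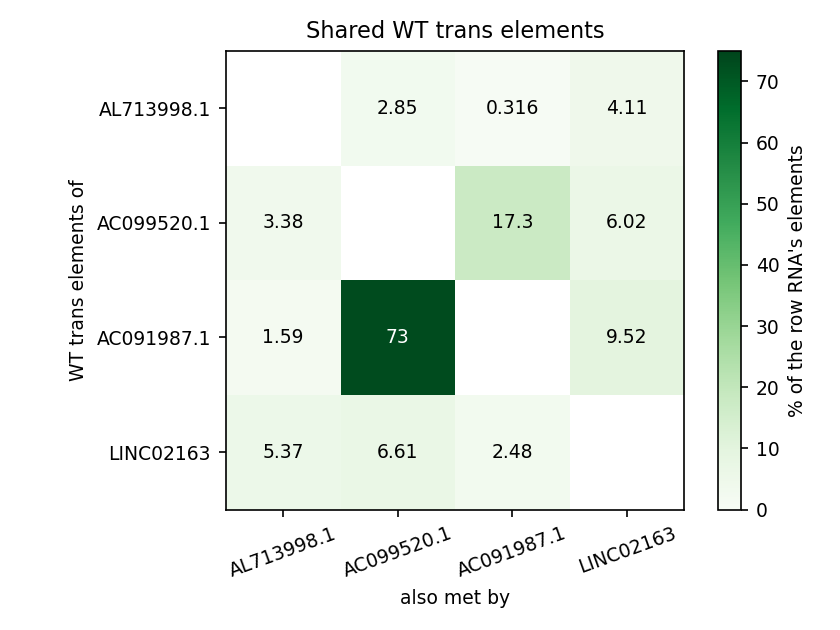
Percentage of each row RNA's WT trans elements that the column RNA also met in WT, with darker green for a larger share. The AC091987.1 row holds the darkest cell, 73.0% shared with AC099520.1, and every other cell is at or below 17.3%.

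Against 76 other RNAs with at least 25 WT trans connections, likeness was measured as the Jaccard index, the shared elements over all elements of both lists. AC099520.1 and AC091987.1 had each other as the nearest list, at 0.163. The next nearest to AC099520.1 were MALAT1 (0.040), SMYD3 (0.036), LINC02476 (0.036) and LINC02163 (0.033), and the next nearest to AC091987.1 were DCAF6 (0.048), SLC25A21 (0.044), AC004949.1 (0.036) and GABRG3 (0.033). AL713998.1 was nearest to MALAT1 (0.041), followed by LMAN1, TMCC2, CDKAL1 and AC004949.1. LINC02163 was nearest to ABL1 (0.064) and NUP214 (0.062), followed by GPC5, SMYD3 and LMAN1. The pair AC099520.1 and AC091987.1 had the highest index of these comparisons by element. For a likeness by regions, the WT trans elements of all RNAs in the table were merged together within 1 Mb. By these regions the order turned: AL713998.1 and MALAT1 reached 0.316, AC099520.1 and LINC02163 0.291, and AC099520.1 and AC091987.1 0.247.

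The 3 RNAs of chromosome 5 met chromosome 8 more than any other chromosome in WT. AC091987.1 had 33 of 63 WT trans connections there (52.4%), AC099520.1 had 89 of 266 (33.5%) and LINC02163 had 60 of 242 (24.8%). These were the 3 highest chromosome 8 shares among the 77 RNAs with at least 25 WT trans connections, the 4th being MED13L at 16.7%. Counted as merged regions, the shares were 53.3% (16 of 30) for AC091987.1, 20.3% (26 of 128) for LINC02163 and 17.9% (21 of 117) for AC099520.1, again ranks 1 to 3 of 77, with MED13L next at 11.8%. All RNAs other than the 4 members placed 2.59% of their WT trans connections there. The 3 RNAs made 7 of 566 trans connections to chromosome 8 in R320* (1.24%), all 7 from LINC02163, and 182 of 501 in WT (36.3%). Since the RNAs were chosen by their R320* and WT numbers of trans connections, nothing is read from this difference. Within its own R320* list LINC02163 had 7 of 61 on chromosome 8 (11.5%), against 4.85% for the other RNAs. The WT contacts spanned 150 elements in 28 regions rather than a single place. The interquartile range of element starts was 74.0 to 100.9 Mb for AC099520.1, 80.4 to 100.5 Mb for AC091987.1 and 71.5 to 103.4 Mb for LINC02163, against 67.1 to 123.2 Mb for the other RNAs.

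**Figure D3:**
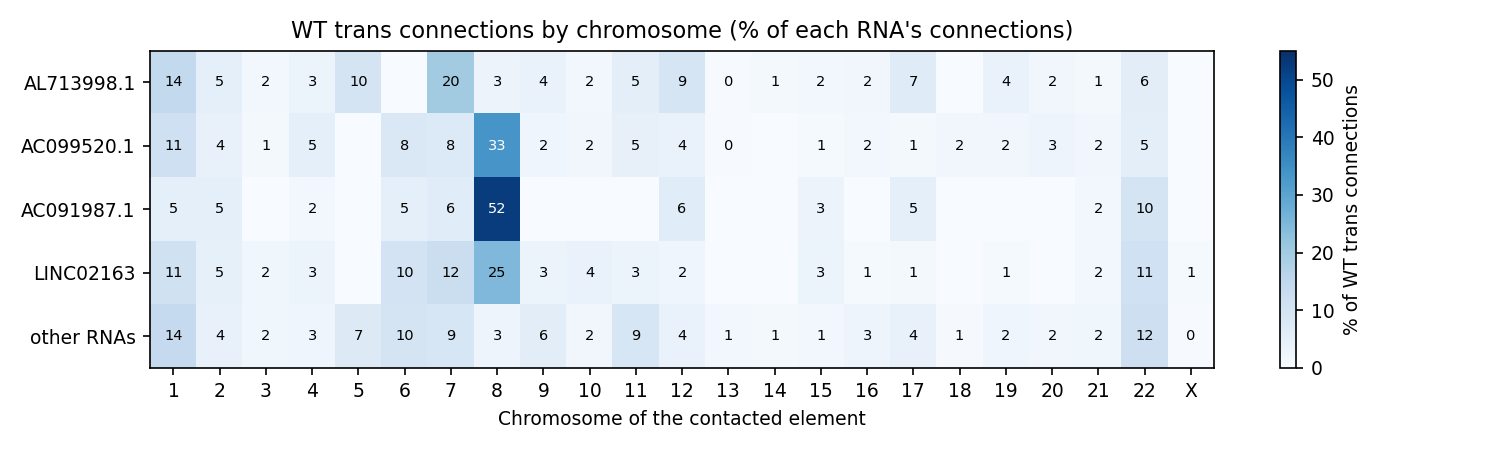
Percentage of WT trans connections that fell on each chromosome, for each of the 4 RNAs and for all other RNAs pooled, with darker blue for a larger share. Chromosome 8 is the darkest cell of the AC091987.1, AC099520.1 and LINC02163 rows (52.4%, 33.5% and 24.8%), and chromosome 7 that of AL713998.1 (19.9%).

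Coding RNAs from around LINC02163 had few trans contacts, too few to compare their share on chromosome 8. LINC02163's local element lies at chromosome 5, 104087774 to 104090433. Outside the members, 17 RNAs, all protein-coding, had a local element within 10 Mb of it. The noncoding member AC099520.1, with its local element at 105229463 to 105231228, also lies within that distance and was left out of this set. Of the 2410 RNAs of the WT list, 77 had at least 25 WT trans connections, so short trans lists were usual. Those 17 RNAs made 10 trans connections in R320* and 12 in WT, at most 6 and 4 for any 1 of them, and 0 reached chromosome 8 in either genotype. All RNAs other than the 4 members placed 4.85% of their trans connections there in R320* and 2.59% in WT. With so few connections a count of 0 was likely in any case, so nothing is read from it. The cis connections of the 17 RNAs numbered 322 in R320* and 366 in WT. FER, PJA2 and EPB41L4A were the 3 neighbours with no connection in R320*, against 32, 23 and 13 in WT. PAM, an enzyme of peptide amidation, had 25 connections in R320* and 9 in WT. Whether fewer cells, less RNA per cell or fewer contacts per RNA molecule lie behind a shorter list cannot be told apart in pooled bulk data.

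With 1 element taken per merged region, the chromosome 8 contacts of AC099520.1 with the highest WT scores were a promoter at the noncoding gene AC018781.1 (101036635 to 101037568, 2.36), an enhancer in SDC2 (96523820 to 96526787, 2.30), which encodes a cell-surface heparan sulphate proteoglycan, and an enhancer near AC100801.2 (85965834 to 85966680, 2.28). AC091987.1 had its top WT score at that same AC100801.2 enhancer (2.61) and its next in CPQ, a carboxypeptidase gene (96878528 to 96879494, 2.47). LINC02163 had its top WT score in AC100801.1 (85832420 to 85852773, 2.29). The AC100801.2 enhancer and a neighbour at 85956125 to 85962399 were each met by all 3 chromosome 5 RNAs, and in all by 5 and 3 RNAs in R320* and by 6 and 6 RNAs in WT. Further LINC02163 targets on chromosome 8 were an enhancer in the phosphodiesterase gene PDE7A (2.01) and 1 in TRPS1, a GATA-type transcriptional repressor (1.98).

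Outside chromosome 8, AC099520.1 reached 30 elements on chromosome 1 (11.3%) and 21 on chromosome 6 (7.89%). AC091987.1 reached 6 on chromosome 22 (9.52%), and LINC02163 reached 30 on chromosome 7 (12.4%) and 27 on chromosome 22 (11.2%). The other RNAs had 13.9% on chromosome 1, 9.58% on chromosome 6, 8.97% on chromosome 7 and 11.8% on chromosome 22. Only the LINC02163 share on chromosome 7 was above theirs. High-scoring WT targets off chromosome 8 included an enhancer in YPEL1 on chromosome 22 (AC099520.1, 2.15). For AC091987.1 they included enhancers in CFAP161 on chromosome 15 (2.34), RSPH14 on chromosome 22 (2.18) and PAFAH2 on chromosome 1 (2.13). For LINC02163 they included an enhancer in GSTK1, a glutathione transferase gene on chromosome 7 (2.05). The single element met by all 4 RNAs was an enhancer near CU633906.2 on chromosome 21 (6368643 to 6377068), with WT scores of 2.01 for AL713998.1, 2.26 for AC099520.1, 2.29 for AC091987.1 and 1.54 for LINC02163. That element was met by 39 RNAs in R320* and 38 in WT, so it was not particular to them. The BCR promoter was likewise met by 23 RNAs in R320* and 24 in WT.

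AL713998.1 spread its trans contacts differently. In WT it had 63 elements on chromosome 7 (19.9%), 45 on chromosome 1 (14.2%), 31 on chromosome 5 (9.81%) and 10 on chromosome 8 (3.16%). The other RNAs had 8.97%, 13.9%, 6.98% and 2.59% in the same order. The AL713998.1 share on chromosome 7 ranked 9th of 77 RNAs. With 1 element taken per merged region, its highest WT scores were at enhancers in UBE2L3, a ubiquitin-conjugating enzyme gene on chromosome 22 (2.36), in AC004917.1 on chromosome 7 (2.35), near ATP2A3, an endoplasmic reticulum calcium pump gene on chromosome 17 (2.21), in SOCS2, a suppressor of cytokine signalling on chromosome 12 (2.20), in MTPN on chromosome 7 (2.20) and in HADH, a gene of mitochondrial fatty acid oxidation, on chromosome 4 (2.20).

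When elements of the 4 RNAs were merged together, 277 regions were met in WT, of which 197 were met by 1 RNA, 55 by 2, 21 by 3 and 4 by all 4. The 4 common regions lay on chromosome 22 (19120601 to 23227115, 46 elements, BCR among the nearest genes), chromosome 8 (99766883 to 103416913, 28 elements, with NCALD), chromosome 7 (127649920 to 130913905, 14 elements, with NRF1 and UBE2H) and chromosome 21 (the CU633906.2 element alone). The next 4 regions, each met by 3 RNAs, were chromosome 8 from 93389718 to 97326295 (28 elements), chromosome 7 from 99362582 to 101174587 (24 elements, including ACHE and EPHB4), chromosome 8 from 85264498 to 86515126 (9 elements) and chromosome 8 from 106726119 to 109645096 (14 elements, including ANGPT1). Of the common regions, 3 thus lay off chromosome 8 and 1 on it.

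The kinds of element met were mostly close to those of other RNAs in the table. Promoters made up 36.1% of the WT trans targets of AL713998.1, 37.2% for AC099520.1, 28.6% for AC091987.1 and 33.9% for LINC02163, against a median of 34.4% over 73 other RNAs with at least 25 WT trans connections. The AC091987.1 share lay below the lower quartile of those RNAs (31.0%). Elements inside a gene were 82.3%, 77.4%, 76.2% and 78.5% of the targets in the same order, against a median of 79.0%. Median WT trans scores were 1.64, 1.49, 1.74 and 1.45, within the interquartile range of those 73 RNAs (1.48 to 1.77) for 3 of the 4 and below it for LINC02163. Elements met by 10 or more RNAs made up 14.9%, 17.7%, 23.8% and 24.4% of the targets, below the median of 25.7% in the other RNAs. For AL713998.1 and AC099520.1 they were also below the lower quartile (21.4%).

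Most of the contacted elements were still listed in R320* with other RNAs. Counting only RNAs other than the member in question, the median number per element was 3 in R320* and 3 in WT at AL713998.1 targets, 4 and 4 at AC099520.1 targets, 3 and 3 at AC091987.1 targets, and 4 and 4 at LINC02163 targets. In R320*, 84.5% of the 316 AL713998.1 targets, 84.2% of the 266 AC099520.1 targets, 77.8% of the 63 AC091987.1 targets and 87.2% of the 242 LINC02163 targets were still met by another RNA. The same share had a median of 87.2% over the 73 other RNAs, with a range from 76.7% to 100%. The shares of all 4 members lay inside that range. AC091987.1 lay near its low end, below the lower quartile of those RNAs (83.3%), and the other members lay above that quartile.

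Some WT trans targets lay at genes of blood lineages, in lists of nearest genes. SLC25A37, the mitochondrial iron importer used in haem synthesis, had its promoter on chromosome 8 (23527232 to 23533085) met by AC091987.1 at 1.89 and by AC099520.1 at 1.53, and its enhancer met by both at 1.51 and 1.25. TFRC, the transferrin receptor, was met by AL713998.1 at an enhancer (1.67) and the promoter (1.48), and LMO2, a partner of TAL1, by AC099520.1. Erythroid genes were nearest to 2 of 63 AC091987.1 targets (3.17%), 3 of 266 AC099520.1 targets (1.13%), 2 of 316 AL713998.1 targets (0.633%) and 0 of 242 LINC02163 targets, against 0.260% of the other RNAs' WT trans connections. These counts are 1 or a few loci each, and the SLC25A37 pair are neighbouring elements on the chromosome that these RNAs favoured.

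Of the megakaryocytic list, ANGPT1, the ligand of the TEK receptor, was met on chromosome 8 by AC099520.1 at its promoter (1.70) and an enhancer (1.35), by LINC02163 at 1.63 and by AC091987.1 at 1.52. Of the myeloid list, LYN, a Src family kinase, was met by LINC02163 (1.47) and CSF1R, the receptor of macrophage colony-stimulating factor, by AL713998.1 (1.37). The ANGPT1 connections were 0.752% of AC099520.1, 0.413% of LINC02163, 1.59% of AC091987.1 and 0% of AL713998.1 targets. The megakaryocytic share was 0.118% of the other RNAs' WT trans connections, and the members' connections all lay at the 1 locus. The LYN and CSF1R connections were 0.413% of LINC02163 and 0.316% of AL713998.1 targets, against 0.134% in the other RNAs. RUNX1 and its partners gave 4 connections: RUNX2 was met by LINC02163 at its promoter (1.54) and an enhancer (1.34), CBFB by AC099520.1 (1.31), and an enhancer in RUNX1 itself by AL713998.1 (1.27). They made up 0.826% of LINC02163, 0.376% of AC099520.1 and 0.316% of AL713998.1 targets and 0% of AC091987.1 targets, against 0.243% in the other RNAs, a gap of 1 or 2 connections. The stem and progenitor list gave IGF2BP1 for AL713998.1 (1.75) and ERG for AC099520.1, and the lymphoid list gave CD7 (1.65) and CD84 (1.59) for AL713998.1. The stem and progenitor shares were 0.316% for AL713998.1 and 0.376% for AC099520.1 against 0.168% in the other RNAs, and the lymphoid share was 0.633% for AL713998.1 against 0.378%, with 0 connections for the remaining members. None of these list connections was present in R320*. Nuclear noncoding genes other than the members were nearest to 4 AL713998.1 and 2 AC099520.1 targets, at MALAT1, MEG3 (1.93) and CCDC26 (1.65). These were 1.27% and 0.752% of their lists, with 0% for AC091987.1 and LINC02163, below the 4.03% of the other RNAs' WT trans connections.

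What AL713998.1 met in R320* was a different and short set. Its 13 trans connections had a median score of 2.17, against 1.64 for its 316 in WT. They fell in 6 regions: SLC28A1 and PDE8A on chromosome 15 (4 elements, highest 2.18), CCDC71 and KLHDC8B on chromosome 3 (3 elements, highest 2.59), LRRN2 and AC096675.1 on chromosome 1 (2 elements, 2.84 and 2.59), KIAA0319L and NCDN on chromosome 1 (2.13 and 1.93), ABCB10, a mitochondrial transporter of the erythroid lineage, on chromosome 1 (2.36), and SPTLC1, a subunit of serine palmitoyltransferase, on chromosome 9. The SPTLC1 enhancer (92070380 to 92070742) was the 1 trans contact listed in both genotypes, with 1.72 in R320* and 1.51 in WT. The other 12 were not listed in WT.

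LINC02163 had 61 trans connections in R320* on 13 chromosomes, 14 of them on chromosome 1 and 7 on chromosome 8. With 1 element per merged region, its top R320* score was at an enhancer on chromosome 4 (2.40), 254681 bp from its nearest gene, CWH43. Next were enhancers in PLEKHA7 on chromosome 11 (2.12), near FCAMR on chromosome 1 (2.11), near LINC00649 on chromosome 21 (2.09) and in HNRNPU on chromosome 1 (2.08). The AL391832.1 promoter on chromosome 1 followed (2.03). By nearest gene, the 8 contacts in both genotypes comprised 2 elements each for HNRNPU, HS1BP3 and CWH43, and 1 each for DDR1 and NUP214. At HNRNPU, whose product binds nuclear RNA and chromatin, the enhancer had 2.08 in R320* and 1.38 in WT, and the promoter 1.77 in R320* and 1.61 in WT. Scores were higher in R320* at 7 of the 8, with a median difference (R320* minus WT) of 0.323 ± 0.281 (SD over connections), and the NUP214 enhancer had 1.53 in R320* and 1.69 in WT. Over all 2524 trans connections listed in both genotypes, 1243 were higher in R320*, with a median difference of -0.00403 ± 0.279. Several of these are widely met places, the HNRNPU enhancer by 56 RNAs in R320* and 45 in WT.

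Contacts of LINC02163 on its own chromosome moved the other way from its trans contacts. It had 203 cis connections in R320* and 122 in WT, and 78 were in both. In R320* 34.0% of all cis connections were not listed in WT, and 30.1% of all WT cis connections were not listed in R320*, against 125 of 203 and 44 of 122 for LINC02163. Among 1079 RNAs listed in both genotypes with at least 25 WT cis connections, 3.99% had at least 1.5 times as many in R320*, as LINC02163 did. The same pooled contrast chose this RNA, so nothing is tested with that number.

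The added cis contacts lay mostly on the side of lower coordinates. On that side of its local element LINC02163 had 92 connections in R320* and 26 in WT, and on the side of higher coordinates 111 in R320* and 96 in WT. By distance there were 12 in R320* and 11 in WT under 1 Mb, 78 in R320* and 44 in WT from 1 to 10 Mb, and 113 in R320* and 67 in WT farther out. Nearby contacts were therefore about equal in number and the distant ones were not.

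**Figure D4:**
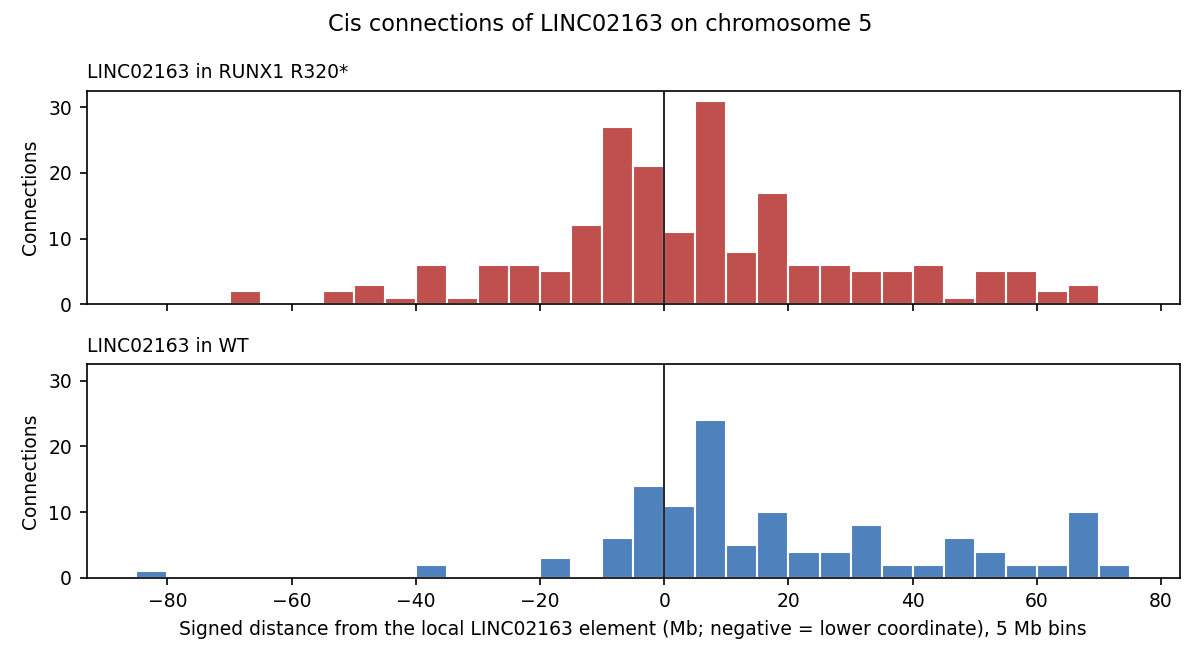
Number of LINC02163 cis connections by signed distance from its local element in bins of 5 Mb, with RUNX1 R320* above and WT below. The bars left of 0 sum to 92 in R320* and 26 in WT, and those right of 0 to 111 in R320* and 96 in WT.

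Where LINC02163 cis contacts were listed in both genotypes, 62 of 78 had the higher score in R320*. The median difference (R320* minus WT) was 0.148 ± 0.212 (SD over connections), and 0.353 ± 0.112 over the 11 under 1 Mb, against 0.0447 ± 0.254 over all 45480 cis connections listed in both. The strongest were an enhancer beside C5orf30 (103280687 to 103281518) with 2.38 in R320* and 2.02 in WT, an enhancer inside C5orf30 (103264405 to 103265733) with 2.35 in R320* and 1.93 in WT, the C5orf30 promoter (103257838 to 103261468) with 2.28 in R320* and 1.90 in WT, and an enhancer near LINC02115 (103526314 to 103527207) with 2.26 in R320* and 1.95 in WT. The local element of LINC02163 itself, an enhancer, had 1.45 in R320* and 1.22 in WT.

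The local and nearby contacts of AL713998.1 stayed listed in R320* while its distant ones did not. Its local element, a promoter at chromosome 6, 67878187 to 67891455, had 2.73 in R320* and 2.56 in WT. Within 1 Mb it had 8 cis connections in R320*, all of them also among the 10 of WT, with a median difference of 0.159 ± 0.247 (R320* minus WT, SD over connections). The AL646090.2 promoter (68037762 to 68044165) had 2.73 in R320* and 2.56 in WT, and an enhancer 84602 bp from the local element had 2.24 in R320* and 1.66 in WT. Beyond 10 Mb it had 3 connections in R320* and 10 in WT, with 0 in common.

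**Figure D5:**
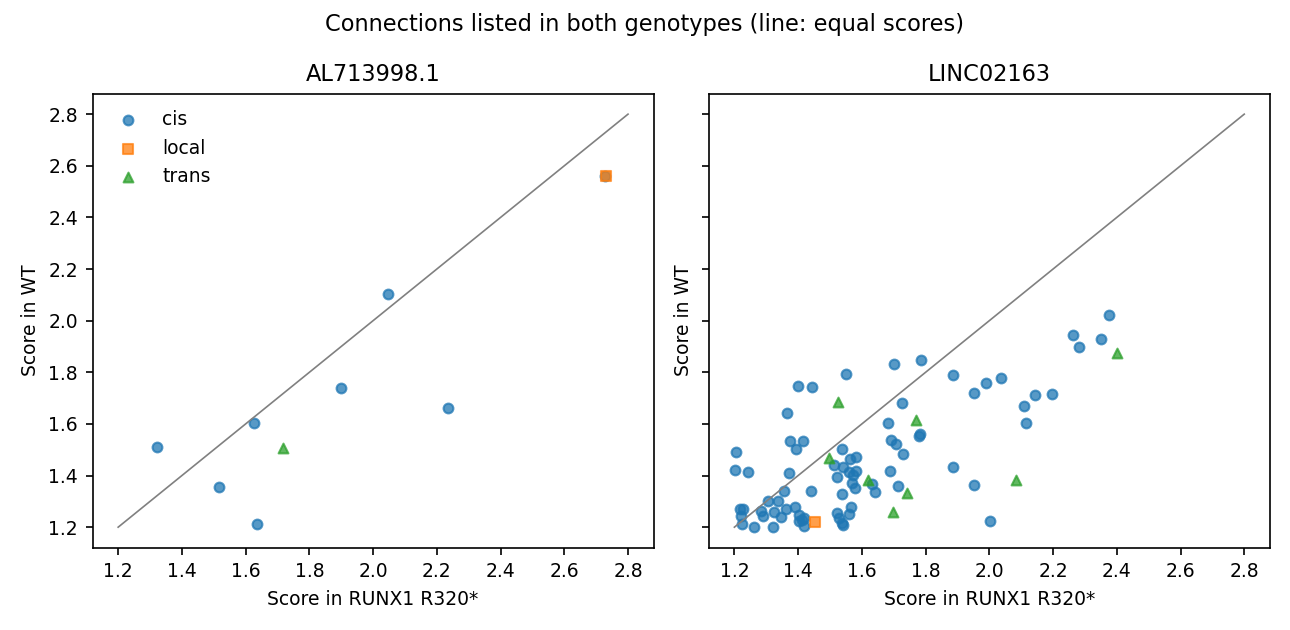
Score in RUNX1 R320* (horizontal axis) against score in WT (vertical axis) for every connection of AL713998.1 and LINC02163 listed in both genotypes, with circles for cis, squares for local and triangles for trans. Points right of the line have the higher score in R320*, as do 62 of 78 cis and 7 of 8 trans connections of LINC02163.

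AC099520.1 and AC091987.1 have cis values in WT only. AC099520.1's local element, an enhancer at chromosome 5, 105229463 to 105231228, had a WT score of 1.35 and was not listed in R320*. It had 70 cis connections in WT, 8 on the side of lower coordinates and 62 on the other, with the highest at an enhancer 641397 bp away (105872625 to 105873329, 1.91) and at an enhancer near WSPAR (133924382 to 133925041, 1.78). AC091987.1 had 106 cis connections and no local element, so its distances were not computed. Its highest WT cis scores were at that same WSPAR enhancer (2.18) and at a promoter of AC099520.1 (105390235 to 105393021, 2.11). Both RNAs thus had the WSPAR enhancer and the surroundings of AC099520.1 among their highest cis contacts.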

How the data were processed

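The authors deposited 1 table of RNA and element connections with a score per genotype, pooled over 2 libraries, and a further column, their difference. Per the submitters' processing notes, cutadapt 1.12, BWA and bedtools were used on hg38. How the score was made, and its scale, were not given in the sources used here. The pooling left no spread between libraries, so the limma test planned for values per library was not run. Connections with a score above 0 were counted by type and genotype, elements of 1 RNA closer than 1 Mb were merged, and lists were compared by shared element identifiers and Jaccard index (Python 3.11.15, pandas 2.3.3, numpy 2.4.6, scipy 1.17.1, matplotlib 3.10.9). For regions shared between members, the elements of all members were merged together. For likeness by regions, those of all RNAs were. The counting, merging and sharing code was tested on simulated data. Starts are printed counting from 1.

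The members and gene lists were chosen with earlier results of these data known. Named items were the 6 highest-scoring trans elements per RNA and genotype (1 per region; all in R320* where 15 or fewer), the leading chromosomes, the 8 regions met by most members, the 5 nearest RNAs and list genes; promoters and cis elements were added after their values were seen. RefSeq tables matched 0 of the 4 RNAs by symbol. A few named items are not reported here.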

Additional observations from a re-analysis of the deposited data

How the results depend on the processing

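No paired analysis was possible because the table holds 1 pooled value per genotype, and for the same reason no library could be left out. Depth is unknown, so an unlisted contact may lie just under the minimum score. AC099520.1 and AC091987.1 have no R320* listing, so their WT percentage is fixed at 100% under every alternative, and these 24 values are left out of the count. Over the other 77 alternative values for 23 results, 47 were counted as unchanged, 26 as moved and 4 as reversed. Percentages counted as unchanged stayed within the exact binomial interval of the reported value. That interval treats connections as independent, which neighbouring elements are not. Score differences counted as unchanged kept their sign and stayed within the SD. For likeness, unchanged means only that the nearest RNA stayed the same, whatever the index. The causes of the changes were not tested.

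With only scores of at least 2, the WT percentage of all trans listings (R320* plus WT) was 71.9% for AL713998.1 (80.8% of its regions) and 45.5% for LINC02163 (45.5% of its regions), so LINC02163 turned to R320*. At 1.5 LINC02163 had 67.1% of connections and 68.5% of regions, and merging within 5 Mb gave 73.8%. AL713998.1 had 91.3% over elements under 1000 bp. In cis, the WT percentage of AL713998.1 turned to 42.9% at 1.5 and 33.3% at 2. That of LINC02163 was 28.2% at 1.5, 8.33% at 2, 28.2% over promoters and 43.7% over elements under 1000 bp.

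Shared targets depended most on merging. Counted as regions merged over all members together, the shared percentage of the shorter list was 24.8% (AL713998.1 and AC099520.1), 26.9% (AL713998.1 and AC091987.1), 24.4% (AL713998.1 and LINC02163), 96.2% (AC099520.1 and AC091987.1), 36.3% (AC099520.1 and LINC02163) and 46.2% (AC091987.1 and LINC02163). Without elements met by 10 or more RNAs, the 3 AL713998.1 pairs fell to 0.913%, 0% and 1.09% in the same order. With scores of at least 1.5, AC099520.1 and AC091987.1 shared 52.0%. Counted as regions of each RNA alone, chromosome 7 held 13.5% of AL713998.1 targets and chromosome 8 held 17.9% of AC099520.1 targets. As a share of the smaller list, KIF20A (0.20) became nearest to AL713998.1 and GPC5 (0.237) to LINC02163. Over regions merged across all RNAs, AC099520.1 and LINC02163 became nearest to each other (0.291).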
